A study of Homo sapiens with 18 samples.

Results

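The genes of cholesterol and fatty acid synthesis were followed in MDA-MB-231 cells, a human triple-negative breast cancer line, over 6 combinations of oxygen and drug. The set held 33 listed genes, 16 sterol synthesis enzymes, 6 regulators and sterol carriers, 8 fatty acid enzymes and 3 genes of sterol efflux or of the liver X receptor (LXR) response, out of 19775 genes with a probe set of their own. A gene was measured by the probe set annotated to its symbol alone, and by the one with the highest mean where there were several. On this rule 30 genes had a probe set, 29 passed the presence filter and were tested, and these 29 were present on all 12 arrays compared. FDFT1 was not in the gene table. The probe sets of CYP51A1 and FADS1 were annotated to several symbols and were not used. ABCG1, a sterol exporter, was present on 1 of 12 arrays, at log2 signals of 2.43 to 3.29, and was not tested.

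Each condition comprised 2 arrays of cells kept for 16 hours in serum-free medium after growth in medium with fetal calf serum. The control cells received no drug in normoxia (N) or in hypoxia at 1% oxygen (H). Paclitaxel, a microtubule stabiliser, was given at 50 µM (N tax and H tax), and epirubicin, a DNA-intercalating anthracycline that inhibits topoisomerase II, at 10 µM (N epi and H epi). Serum, a source of lipoproteins, was thus absent from all 6 conditions, and all of them come from 1 cell line. The labels number the replicates without saying whether they are separate cultures, while the study's text speaks of independent experiments. A further 6 arrays are titled as the third of their condition. Their source names give another treatment: epirubicin for control titles, no drug for paclitaxel titles and paclitaxel for epirubicin titles. These arrays were assigned to no condition. With them placed by source name, limma called 0 of the tested genes in each of 10 comparisons (4 at an unadjusted p under 0.05 from H to H epi and 0 in the other 9). With them placed by title it called 23 from N to N tax and 26 from N to N epi. That fit by title also called 40.6% and 69.3% of all genes tested in these 2 comparisons. On these 6 arrays the log2 signal of INSIG1 was 7.06 and 6.40 where the title gives N epi and H epi, and 12.35 to 13.10 on the other 4. That of SQLE was 5.23 and 4.87 on the former and 9.42 to 10.39 on the latter. The source names give paclitaxel for the former, and epirubicin for the arrays titled as controls, on which INSIG1 was at 12.99 and 13.10. Since these are whole cultures, fewer cells of a type and less RNA per cell cannot be told apart.

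Cells make cholesterol from acetyl-CoA through mevalonate, isoprenoids, squalene and lanosterol, and fatty acids through malonyl-CoA. Both routes are transcribed under the control of the sterol regulatory element-binding proteins (SREBPs), which the escort protein SCAP carries to the Golgi when membrane sterol is low, while INSIG proteins hold SCAP in the endoplasmic reticulum when sterol is plentiful. Liver X receptors act in the other direction on sterol balance and switch on genes of sterol export. In cultured cells without lipoproteins the SREBP target genes are commonly active.

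Across the arrays, 41.4% to 42.6% of probe sets were present, meaning a log2 signal above 3.14. The line's mesenchymal marker VIM stood at log2 signals of 15.55 to 15.74, and ESR1, PGR and CDH1 at 3.27 or lower. Against the marker list, GATA3 (4.71 to 8.79) and EPCAM (6.01 to 8.02) were present on every array compared. The difference between the 3′ and the 5′ control probe sets of ACTB moved with the conditions, from -0.307 to -0.206 with epirubicin, from -0.042 to -0.019 in N and from 0.071 to 0.317 on the other arrays. Its part in the results with epirubicin was not tested.

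**Figure D1:**
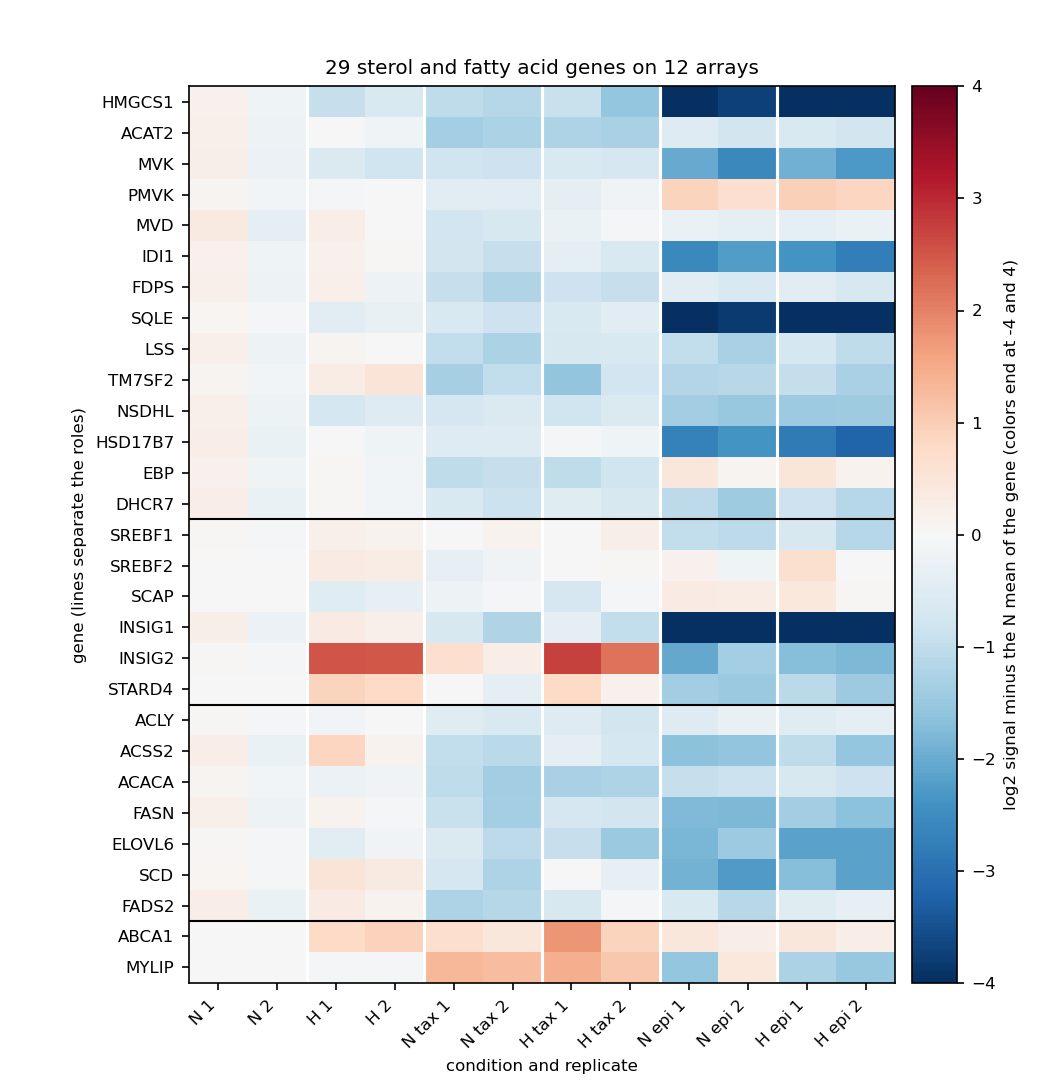
Log2 signal of 29 genes (rows, by role) on each of 12 arrays (columns), as the difference from the mean of the 2 N arrays, with colors ending at -4 and 4. The epirubicin arrays hold the darkest blue cells, for HMGCS1, SQLE and INSIG1, and INSIG2 is red on the H and H tax arrays and blue on the epirubicin arrays.

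Paclitaxel lowered most of the synthesis enzymes in normoxia. From N to N tax, 17 of 29 genes fell and 0 rose (limma, adjusted p under 0.05), against 15.0% lower and 8.92% higher among all 11193 genes tested. The median log2 change of the 29 genes was -0.81, and that of all genes tested was -0.03. The falls comprised 10 of 14 sterol enzymes and 7 of 7 fatty acid enzymes. Of the 6 regulators and the 2 LXR target genes 0 passed the test, counts that do not set them apart from the 15.0% of all genes. The falls were of similar size, from a log2 change of -0.55 for ACLY to -1.32 for ACAT2. Without N replicate 1 the count of falls was 4, without N tax replicate 1 or 2 it was 9 or 7, and without a presence filter it was 7. With the third arrays added by title 20 genes fell and 3 rose (ABCA1, MYLIP and INSIG2), where 40.6% of all genes tested passed in either direction. In a fit of the N and N tax arrays with no other condition 11 fell and 2 rose (ABCA1 and MYLIP). Apart from the fit by title, the share over all genes was not computed for these refits.

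ACAT2, the cytosolic thiolase that joins acetyl-CoA units at the start of the sterol route, had log2 signals of 12.27 and 11.86 in N, 10.69 and 10.79 in N tax, 12.05 and 11.92 in H, and 10.82 and 10.77 in H tax. The paclitaxel arrays lay below all control arrays, without overlap. Among all genes tested, 39% were lower without overlap from N to N tax and 35.9% from H to H tax. It fell 2.50-fold from N to N tax (log2 change -1.32, standard error 0.15, adjusted p = 0.000871). With epirubicin its signals were 11.56 and 11.33 in normoxia and 11.44 and 11.33 in hypoxia, between those of the control and the paclitaxel arrays.

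Along the rest of the sterol route, the genes that fell with paclitaxel lay at early and at late steps alike. HMGCS1, the HMG-CoA synthase, fell by 1.08 on the log2 scale, MVK, the mevalonate kinase, by 0.81, and IDI1, the isopentenyl diphosphate isomerase, by 0.84. FDPS, which makes farnesyl diphosphate, fell by 1.07 and LSS, which closes the sterol ring system, by 1.13. Of the late enzymes, TM7SF2, a sterol reductase, fell by 1.14, EBP, a sterol isomerase, by 0.97, DHCR7, the 7-dehydrocholesterol reductase, by 0.74, and NSDHL, which takes part in the removal of sterol methyl groups, by 0.62. The adjusted p of these 9 genes lay between 0.00407 and 0.0372. PMVK (log2 change -0.41, adjusted p = 0.0539), MVD (-0.70, 0.0548), HSD17B7 (-0.52, 0.108) and SQLE (-0.73, 0.282) did not pass. The standard error of SQLE is shared by all conditions, and its H epi arrays, at 4.98 and 3.36, lay far apart. In a limma fit of the N and N tax arrays with no other condition SQLE passed as lower (-0.73, adjusted p = 0.0358). Under median centring of the arrays MVK, NSDHL and DHCR7 no longer passed, with changes of -0.76, -0.58 and -0.70.

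In the fatty acid route, the fall extended from the supply of acetyl-CoA to the desaturases. ACLY, which releases acetyl-CoA from citrate, fell by 0.55, and ACSS2, which makes it from acetate, by 1.04. ACACA, the acetyl-CoA carboxylase that forms malonyl-CoA, had log2 signals of 10.64 and 10.44 in N and 9.53 and 9.16 in N tax, and fell 2.29-fold (log2 change -1.20, standard error 0.15, adjusted p = 0.00113). FASN, the fatty acid synthase, fell by 1.14, ELOVL6, an elongase, by 0.82, and SCD, the stearoyl-CoA desaturase, by 0.96. FADS2, a desaturase of polyunsaturated fatty acids, had log2 signals of 10.95 and 10.40 in N and 9.43 and 9.52 in N tax, and fell 2.30-fold (log2 change -1.20, standard error 0.25, adjusted p = 0.0118). The N and N tax arrays did not overlap for either gene, and 39% of all genes tested were lower without overlap. FADS2 no longer passed without N replicate 1 (log2 change -0.93, adjusted p = 0.0889) or without either N tax array, and ACLY, at -0.51, did not pass under median centring.

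The transcripts of the SREBPs themselves did not pass the test with paclitaxel. SREBF1, which encodes SREBP-1, had log2 signals of 9.07 and 8.95 in N and 9.03 and 9.14 in N tax, and these overlapped (log2 change 0.07, 95% interval -0.32 to 0.47). SREBF2, which encodes SREBP-2, was at 8.77 on both N arrays and at 8.43 and 8.62 in N tax (log2 change -0.25, interval -0.71 to 0.22). SCAP was at 9.89 and 9.95 in N and at 9.70 and 9.84 in N tax (log2 change -0.15, interval -0.62 to 0.33). None of the 3 passed the test, and the intervals still hold small changes. INSIG1, itself a classical SREBP target, was at 13.12 and 12.65 in N and at 12.25 and 11.69 in N tax. Its change of -0.92 had a wide interval of -2.50 to 0.67. The standard error is shared by all conditions, and the N epi arrays of INSIG1, at 6.48 and 8.83, lay far apart. STARD4, a sterol transfer protein, had a change of -0.19.

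Among the LXR target genes, MYLIP, which encodes a ubiquitin ligase, was at 7.65 and 7.71 in N and at 9.02 and 8.91 in N tax. Its N tax arrays thus lay above its N arrays, as they did for 32.3% of all genes tested. The log2 change of 1.29 did not pass (standard error 0.51, adjusted p = 0.105), and it did pass under quantile normalization (1.41, adjusted p = 0.0401) and under median centring (1.33, adjusted p = 0.0471). The standard error is shared by all conditions, and the N epi replicates of MYLIP, at 6.13 and 8.10, lay far apart. ABCA1, the exporter of cellular cholesterol, was at 7.01 and 7.06 in N and at 7.72 and 7.50 in N tax (log2 change 0.57, adjusted p = 0.139).

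In hypoxia the same drug lowered fewer of these genes. From H to H tax, 11 of 29 fell and 0 rose, against 18.1% lower and 13.3% higher among all genes tested, with medians of -0.53 and -0.01 on the log2 scale. The 11 comprised 6 sterol enzymes (ACAT2, IDI1, FDPS, LSS, TM7SF2 and EBP) and 5 fatty acid enzymes (ACLY, ACSS2, ACACA, FASN and ELOVL6). TM7SF2 had log2 signals of 7.89 and 8.09 in H and 6.004 and 6.83 in H tax, and fell 2.98-fold (log2 change -1.58, standard error 0.26, adjusted p = 0.00275). ACAT2 fell 2.28-fold (log2 change -1.19, adjusted p = 0.000875), and ACACA, at 10.31 and 10.41 in H and 9.26 and 9.31 in H tax, fell 2.11-fold (log2 change -1.08, adjusted p = 0.00116). The arrays of H and H tax did not overlap for any of these 3 genes. Lower without overlap from H to H tax were 35.9% of all genes tested. In a fit of the H and H tax arrays with no other condition the count was 6, 5 lower and 1 higher, and without a presence filter it was 6. It was 5 without H replicate 1 or without H tax replicate 2, and 6 without H replicate 2 or without H tax replicate 1.

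The difference between hypoxia and normoxia in the response to paclitaxel was itself tested, and 0 of 29 genes passed, against 0.0357% higher and 0.0536% lower among all genes tested. The median of this difference was 0.16 on the log2 scale, and the point estimate lay above 0 for 20 of 29 genes, against 5711 of all 11193 genes tested. The largest value was that of MVK, at 0.86 (95% interval 0.11 to 1.60, adjusted p = 0.542). MVK was at 9.01 and 8.52 in N, 7.97 and 7.95 in N tax, 8.19 and 7.96 in H and 8.16 and 8.09 in H tax, so that both N arrays stood above the others. The lower count in hypoxia is therefore not shown to be a smaller response. At an unadjusted p under 0.05, limma counted 2 of the 29 for this difference.

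**Figure D2:**
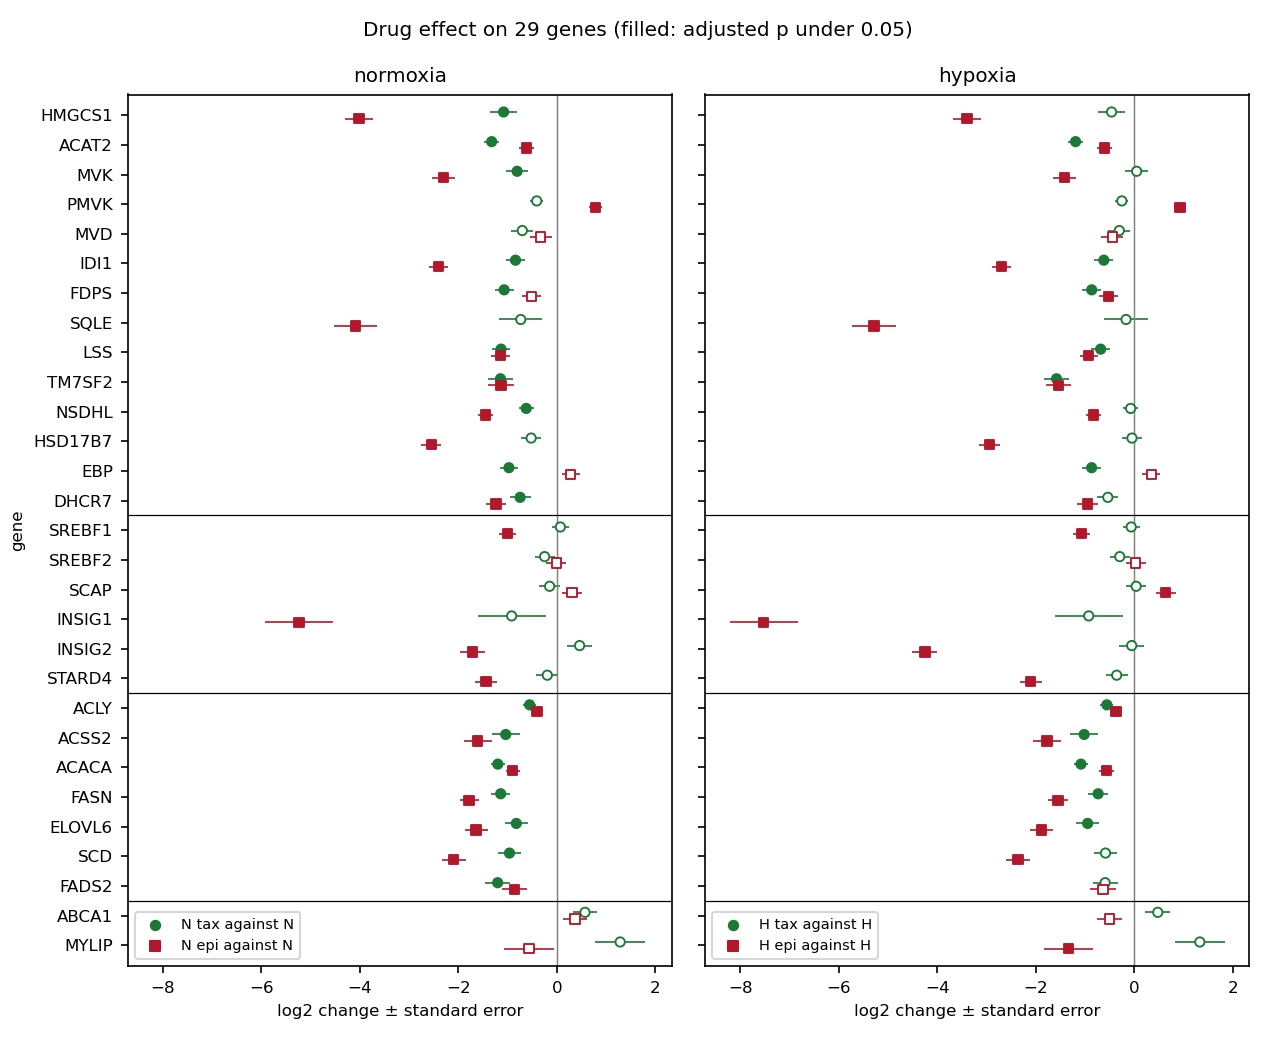
Log2 change with paclitaxel (circles) and epirubicin (squares) for 29 genes in normoxia (left) and hypoxia (right), with bars of 1 standard error from limma (n = 2 arrays per condition) and filled symbols for an adjusted p under 0.05. Most circles lie between -1.58 and 0, while the squares reach -7.52 for INSIG1; with median centring of the arrays, the squares of ACLY in both panels and of FDPS in hypoxia move to 0.00, 0.17 and 0.02.

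Epirubicin lowered more of the genes than paclitaxel did, and by far larger factors at a few of them. Over all genes tested the share lower in normoxia was also greater, 30.8% with epirubicin and 15.0% with paclitaxel. The drug effects were not tested against each other. From N to N epi, 21 of 29 genes fell and 1 rose, against 30.8% lower and 24.2% higher among all genes tested. The median log2 change of the 29 genes was -1.15, and that of all genes tested was -0.01. The falls comprised 10 of 14 sterol enzymes, 7 of 7 fatty acid enzymes and 4 of 6 regulators. From H to H epi, 22 fell and 2 rose, against 36.2% lower and 29.5% higher, with medians of -1.07 and -0.03. Median centring shifted the median of all genes to 0.39 in normoxia and 0.51 in hypoxia. With it 18 genes fell and 4 rose in normoxia, and 14 fell and 4 rose in hypoxia. In the same fit 67.1% of all genes tested passed in normoxia and 77.5% in hypoxia, counting both directions.

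HMGCS1, at the entry of the mevalonate route, and SQLE, the squalene epoxidase, fell the most among the enzymes. HMGCS1 had log2 signals of 9.06 and 8.69 in N, 4.56 and 5.16 in N epi, 7.96 and 8.28 in H, and 4.89 and 4.56 in H epi. The 4 epirubicin arrays lay below all other arrays, which included 7.87 and 7.73 in N tax and 7.98 and 7.34 in H tax. Among all genes tested, 42.5% were lower without overlap from N to N epi and 43.9% from H to H epi. HMGCS1 was 16.2-fold lower in N epi (log2 change -4.02, adjusted p = 4.05e-05, standard error 0.28) and 10.5-fold lower in H epi (log2 change -3.39, adjusted p = 2.89e-05). Its other probe set had changes of -4.07 and -3.90, both past the test.

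SQLE had log2 signals of 9.90 and 9.71 in N, 5.46 and 5.98 in N epi, 9.39 and 9.51 in H, and 4.98 and 3.36 in H epi. The epirubicin arrays again lay below all others, and H epi replicate 2 was close to the presence threshold of 3.14. From N to N epi 42.5% of all genes tested were lower without overlap, and from H to H epi 43.9%. SQLE was 17.0-fold lower in N epi (log2 change -4.09, adjusted p = 0.000228, standard error 0.44) and 38.9-fold lower in H epi (log2 change -5.28, adjusted p = 3.09e-05). The other 2 probe sets of SQLE fell too, with log2 changes of -3.94 and -1.62 in normoxia and of -3.65 and -1.09 in hypoxia, so that the size depends on the probe set.

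Other sterol enzymes fell less. In normoxia, HSD17B7, which reduces a sterol ketone and has a pseudogene copy that could share its probes, was 5.85-fold lower, IDI1 5.29-fold and MVK 4.92-fold. NSDHL was at 10.36 and 9.98 in N and at 8.77 and 8.65 in N epi, and fell 2.74-fold (log2 change -1.45, adjusted p = 0.000205). DHCR7, LSS and TM7SF2 fell 2.35-fold, 2.21-fold and 2.20-fold, with TM7SF2 at 7.68 and 7.48 in N and 6.41 and 6.48 in N epi. ACAT2, among the most lowered with paclitaxel, fell 1.54-fold with epirubicin (log2 change -0.62, adjusted p = 0.00945), and this did not pass under median centring (-0.22, adjusted p = 0.352). In hypoxia the same enzymes fell, HSD17B7 7.66-fold and IDI1 6.45-fold, and FDPS passed as well, at 1.43-fold (adjusted p = 0.046), though under median centring its change was 0.02. ACAT2 (-0.06), LSS (-0.38), NSDHL (-0.28) and DHCR7 (-0.41) did not pass in hypoxia under median centring.

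Not every step of the sterol route went down with epirubicin. PMVK, the phosphomevalonate kinase that acts directly after MVK, rose 1.73-fold from N to N epi (log2 change 0.79, adjusted p = 0.00148, standard error 0.13) and 1.91-fold from H to H epi (0.93, adjusted p = 0.00035). The arrays without drug gave 9.93 and 9.74 (N) and 9.77 and 9.86 (H), and those with epirubicin 10.73 and 10.52 (N epi) and 10.78 and 10.70 (H epi), without overlap. Among all genes tested, 39.3% were higher without overlap from N to N epi and 38.9% from H to H epi. EBP was at 11.13 and 10.80 in N and 11.43 and 11.07 in N epi, which overlapped, with changes of 0.28 and 0.35 that did not pass, and that passed under median centring at 0.69 (adjusted p = 0.0173) and 0.89 (adjusted p = 0.00368). MVD, which decarboxylates mevalonate diphosphate, passed in no comparison and ranged from 4.72 to 5.86 over the 12 arrays.

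The fatty acid enzymes fell with epirubicin as well, SCD most. It fell 4.26-fold in normoxia (log2 change -2.09, adjusted p = 0.000292, standard error 0.24) and 5.12-fold in hypoxia (-2.36, adjusted p = 7.26e-05). FASN fell 3.43-fold and 2.92-fold, ELOVL6 3.12-fold and 3.67-fold, and ACSS2 3.04-fold and 3.41-fold. ACACA was at 9.61 and 9.68 in N epi, with 9.89 and 9.71 in H epi, above its paclitaxel arrays, and fell 1.86-fold and 1.48-fold, the latter not past the test under median centring (-0.03, adjusted p = 0.885). FADS2 was at 10.07 and 9.55 in N epi, with 10.20 and 10.36 in H epi, and fell 1.82-fold in normoxia (adjusted p = 0.021), while its hypoxia change of -0.63 did not pass (adjusted p = 0.0575). FADS2 in normoxia did not pass without N replicate 1 (-0.59) or N epi replicate 2 (-0.60). ACLY fell by 0.40 and 0.37, and these changes became 0.00 and 0.17 under median centring.

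For 2 genes a further probe set moved the other way with epirubicin. A further probe set of FASN rose by 0.82 in normoxia (adjusted p = 0.0268) and 1.26 in hypoxia, and one of IDI1 by 1.21 (adjusted p = 0.000285) and 1.01. Among the 24 further probe sets of the genes that changed in normoxia, 19 had the direction of the representative one and 16 of them passed the test, and in hypoxia these numbers were 22 and 19 of 27. All 3 further probe sets of SCD and both of ELOVL6 fell past the test in both oxygen conditions.

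Of the regulators, INSIG1 showed the greatest fall of all 29 genes. On the N arrays its log2 signal was 13.12 and 12.65, on the N epi arrays 6.48 and 8.83, on the H arrays 13.20 and 13.08, and on the H epi arrays 6.18 and 5.05. The epirubicin arrays lay below the paclitaxel arrays as well, which were at 12.25 and 11.69 in N tax and 12.54 and 11.89 in H tax. Lower without overlap were 42.5% of all genes tested from N to N epi and 43.9% from H to H epi. INSIG1 was 37.6-fold lower in N epi (log2 change -5.23, adjusted p = 0.000553, standard error 0.69) and 184-fold lower in H epi (log2 change -7.52, adjusted p = 4.7e-05). The N epi replicates differed by more than those of any other of the 29 genes (SD 1.66), and the other probe sets gave changes of -2.54 and -5.82 in normoxia and of -3.09 and -7.71 in hypoxia.

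INSIG2, the paralog of INSIG1, fell as well, from 8.80 and 8.71 in N to 6.69 and 7.38 in N epi, and from 11.27 and 11.23 in H to 7.04 and 6.96 in H epi. These are falls of 3.29-fold (log2 change -1.72, adjusted p = 0.000922, standard error 0.25) and 19.0-fold (log2 change -4.25, adjusted p = 8.84e-06). STARD4 fell 2.71-fold and 4.28-fold. SREBF1 went from 9.07 and 8.95 in N to 8.04 and 7.97 in N epi, and from 9.20 and 9.16 in H to 8.36 and 7.86 in H epi, falls of 2.01-fold (log2 change -1.01, adjusted p = 0.00176) and 2.10-fold (-1.07, adjusted p = 0.000739).

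SREBF2 and SCAP did not follow. SREBF2 was at 8.94 and 8.59 in N epi, around the N value of 8.77 (log2 change -0.01, 95% interval -0.47 to 0.46), and at 9.42 and 8.80 in H epi against 9.09 and 9.07 in H (0.03, interval -0.43 to 0.49), though with median centring the latter was 0.57 and passed (adjusted p = 0.0284). SCAP rose 1.56-fold in hypoxia, from 9.42 and 9.60 in H to 10.34 and 9.98 in H epi (log2 change 0.64, standard error 0.21, adjusted p = 0.0251). It did not pass without H replicate 1 (0.55, adjusted p = 0.122), H replicate 2 (0.73, adjusted p = 0.0519) or H epi replicate 1 (0.46, adjusted p = 0.145), nor without a presence filter (0.64, adjusted p = 0.0819) or in a fit of these conditions alone. In normoxia it was at 10.24 and 10.21 in N epi against 9.89 and 9.95 in N, a change of 0.31 that did not pass (adjusted p = 0.246) and that passed under median centring at 0.71 (adjusted p = 0.0134).

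Of the LXR target genes, MYLIP fell 2.52-fold from H to H epi (log2 change -1.33, standard error 0.51, adjusted p = 0.0463), from 7.62 and 7.61 to 6.41 and 6.16. This did not pass under quantile normalization (-0.75) or median centring (-0.79). ABCA1 was at 7.50 and 7.32 in N epi, with 7.51 and 7.30 in H epi, changes of 0.37 and -0.49 that did not pass. In N epi ABCA1 passed as higher under quantile normalization (0.76) and median centring (0.77).

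**Figure D3:**
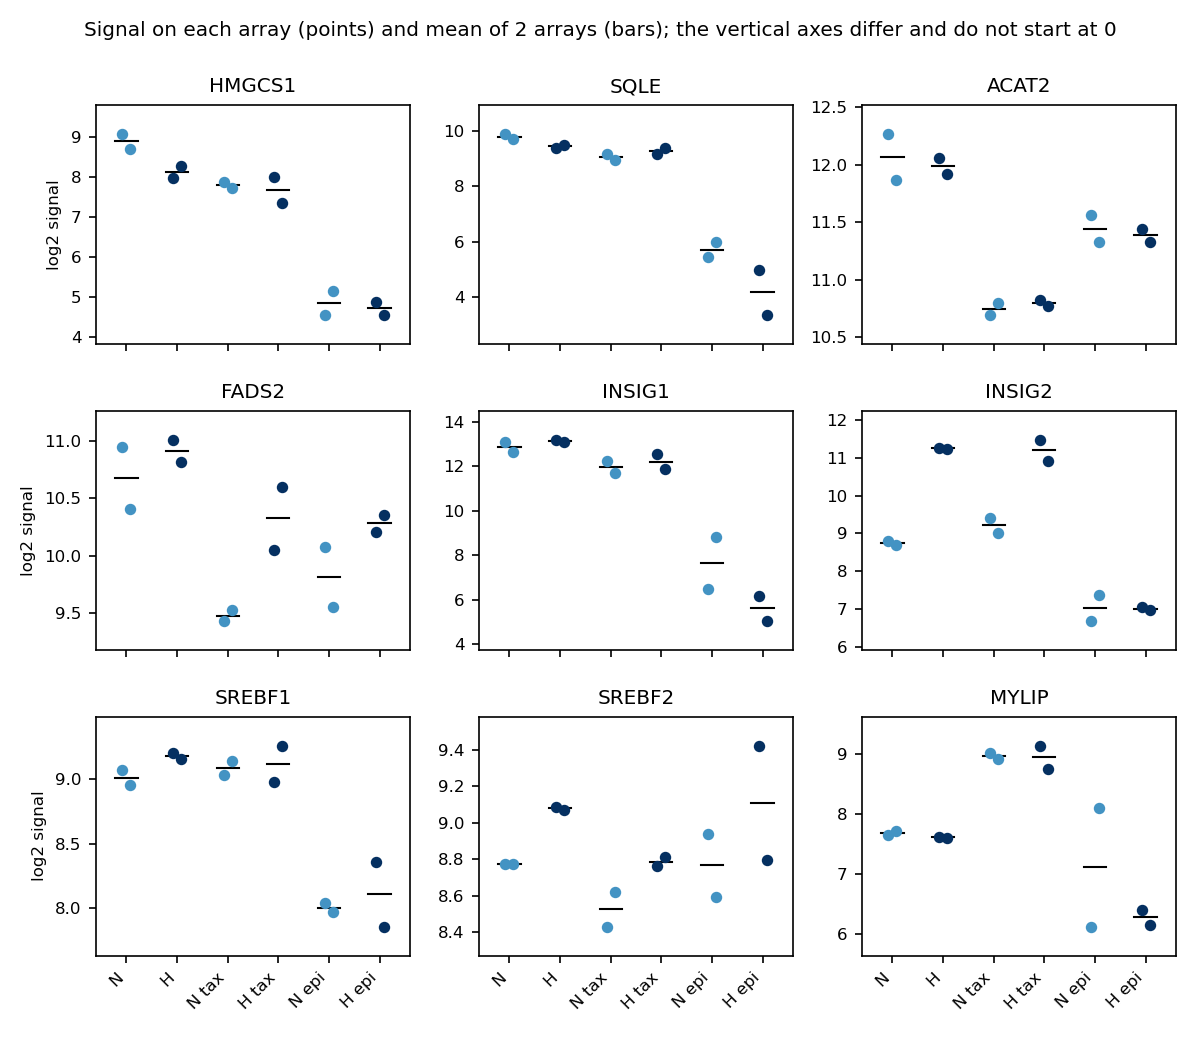
Log2 signal of 9 of the genes on each array (points, light for normoxia and dark for hypoxia), with the mean of 2 arrays per condition as a bar; the axes do not start at 0 and differ between panels. HMGCS1, SQLE and INSIG1 are lowest with epirubicin, ACAT2 and FADS2 in normoxia with paclitaxel, INSIG2 is high in H and H tax, SREBF2 stays between 8.43 and 9.42, and the N epi points of INSIG1 and MYLIP lie far apart.

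To show what the upstream regions of these genes share, promoter windows from RefSeq (build GRCh38.p14, 250 bases before to 50 after the start) were searched for motifs on both strands. A window was found for 28 of the 33 genes, and 8 of these had several, of which the first was used. The sterol regulatory element core TCACNCCAC was in the window of 1 gene, SREBF2, against 1.13% of all 35116 windows. CCAAT, the box bound by NF-Y, was in 17 of 28 (60.7%), against 34.6% of all windows and 37.3% of those of 9234 genes tested. GGGCGG, the GC box, was in 26 (92.9%), against 45% and 71%. ACGTG, the core of the hypoxia response element, added after the values of INSIG2 were seen, was in 7 (25%), against 21.4% and 27.4%. The windows of 4 regulators and enzymes are printed, HMGCS1 (chr5:43313363-43313662, minus strand) and INSIG1 (chr7:155297628-155297927, plus strand) for their falls with epirubicin, SREBF2 (chr22:41832855-41833154, plus strand) for its sterol element, and INSIG2 (chr2:118088221-118088520, plus strand) for its change with hypoxia. Capitals mark matches to the sterol element and to the CCAAT and hypoxia motifs, and a match on the other strand reads as its reverse complement.
HMGCS1: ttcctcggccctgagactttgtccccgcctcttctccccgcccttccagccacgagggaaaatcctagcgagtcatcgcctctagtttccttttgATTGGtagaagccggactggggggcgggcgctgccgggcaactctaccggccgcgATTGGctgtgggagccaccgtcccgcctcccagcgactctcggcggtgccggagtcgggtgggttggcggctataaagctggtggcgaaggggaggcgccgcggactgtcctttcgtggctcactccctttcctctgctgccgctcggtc
INSIG1: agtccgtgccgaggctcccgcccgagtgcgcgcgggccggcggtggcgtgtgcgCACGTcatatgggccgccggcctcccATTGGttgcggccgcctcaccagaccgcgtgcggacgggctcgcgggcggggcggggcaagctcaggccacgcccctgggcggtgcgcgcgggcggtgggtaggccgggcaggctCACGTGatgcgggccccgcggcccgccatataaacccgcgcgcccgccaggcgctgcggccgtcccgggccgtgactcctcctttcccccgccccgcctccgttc
SREBF2: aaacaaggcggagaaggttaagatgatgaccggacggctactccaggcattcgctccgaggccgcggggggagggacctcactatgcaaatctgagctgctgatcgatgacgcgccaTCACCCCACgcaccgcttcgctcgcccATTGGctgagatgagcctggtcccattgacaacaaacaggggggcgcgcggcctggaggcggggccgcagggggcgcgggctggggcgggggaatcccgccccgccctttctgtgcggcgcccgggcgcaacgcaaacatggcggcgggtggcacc
INSIG2: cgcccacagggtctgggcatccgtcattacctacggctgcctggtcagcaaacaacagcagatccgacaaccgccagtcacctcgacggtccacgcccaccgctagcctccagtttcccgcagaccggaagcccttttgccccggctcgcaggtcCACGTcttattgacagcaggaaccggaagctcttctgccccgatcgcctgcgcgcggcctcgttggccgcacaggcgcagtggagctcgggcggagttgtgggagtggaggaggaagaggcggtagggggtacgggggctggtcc
HMGCS1, which fell with both drugs in normoxia, held 2 CCAAT boxes and no ACGTG. INSIG1 held 1 CCAAT box and 3 matches to ACGTG. Those at -55 and -54 are the opposite strands of a single stretch, CACGTG. INSIG2, whose signal was higher in hypoxia without epirubicin, held 1 match to ACGTG and no CCAAT box. These are matches of letters in a short window, and elements farther away or in other letters were not looked for.

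With hypoxia in itself, the counts of these genes lay near the shares over all genes. From N to H, 1 of 29 rose and 1 fell, against 4.26% higher and 5.75% lower among all genes tested, and the median log2 change was -0.01, against -0.03 for all genes. INSIG2 rose 5.66-fold, from 8.80 and 8.71 to 11.27 and 11.23 (log2 change 2.50, standard error 0.25, adjusted p = 0.00127). The arrays of N and H did not overlap, and those of each condition lay close together. Higher without overlap from N to H were 27.1% of all genes tested. NSDHL fell 1.53-fold, from 10.36 and 9.98 to 9.46 and 9.65 (log2 change -0.61, adjusted p = 0.0417), and no longer passed under either other scaling of the arrays (-0.60 and -0.55), with a replicate block, or without any 1 of the N, H, N tax and H epi arrays. With quantile normalization 3 genes rose and 0 fell, and with median centring 2 rose and 0 fell (INSIG2 and STARD4). Of all genes tested, 11.3% and 7.98% passed in these 2 fits, counting both directions. Without H tax replicate 1 or 2, arrays that enter this comparison only through the shared spread, 3 genes rose and 1 fell.

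STARD4 and ABCA1 came close to the threshold in hypoxia. STARD4 was at 10.93 and 10.96 in N and at 11.82 and 11.75 in H (log2 change 0.84, adjusted p = 0.0556), and ABCA1 was at 7.84 and 7.96 in H, above the N arrays (0.86, adjusted p = 0.0692). HMGCS1 (-0.76, adjusted p = 0.137) and MVK (-0.70, adjusted p = 0.104) had the lowest changes and did not pass. SREBF1, SREBF2 and SCAP had changes of 0.17, 0.31 and -0.40 that did not pass either. None of the 7 fatty acid enzymes passed, with changes between -0.27 and 0.49.

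With paclitaxel, INSIG2 was again the gene that rose. From N tax to H tax 1 of 29 genes rose and 0 fell, against 0.992% higher and 0.259% lower among all genes tested. Without H tax replicate 2 the count was 2. INSIG2 rose 3.97-fold, from 9.41 and 9.02 to 11.48 and 10.93 (log2 change 1.99, standard error 0.25, adjusted p = 0.00833). Its arrays did not overlap, and 16.4% of all genes tested were higher without overlap. INSIG2 was not stable over the other fits. It did not pass without N tax replicate 2 (1.79, adjusted p = 0.0766) or in a fit of these conditions alone (1.99, adjusted p = 0.237). The median of the 29 genes was 0.19, against -0.04 for all genes, and 21 of 29 point estimates lay above 0, against 4657 of all 11193 genes tested. The highest of the enzymes were FADS2, from 9.43 and 9.52 to 10.04 and 10.60 (0.85, adjusted p = 0.196), and SCD (0.81, adjusted p = 0.188).

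With epirubicin the rise of INSIG2 was not seen. From N epi to H epi 0 of 29 genes rose and 0 fell, against 0.214% higher and 1.48% lower among all genes tested, with 2 of the 29 at an unadjusted p under 0.05 in limma. INSIG2 was at 6.69 and 7.38 in N epi, with 7.04 and 6.96 in H epi, which overlapped (log2 change -0.03, 95% interval -0.61 to 0.55). The hypoxia effect on INSIG2 differed between epirubicin and control cells by -2.53 on the log2 scale (standard error 0.36, adjusted p = 0.0128), and it was the 1 gene of 29 that passed this test as lower, with 0 as higher, against 2.52% lower and 1.56% higher among all genes tested. The adjusted p was 0.0553, 0.0662 and 0.0583 without N replicate 1, N replicate 2 and H replicate 1, with differences of -2.58, -2.49 and -2.51. Without N epi replicate 1, 3 genes passed as lower and 1 as higher, and without H epi replicate 1, 2 passed as lower.

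INSIG1 and SQLE had lower means in H epi than in N epi, by 2.04 (adjusted p = 0.19) and 1.55 (adjusted p = 0.128) on the log2 scale, which did not pass. The size of both differences depended on 1 array. Without N epi replicate 1 that of INSIG1 was -3.22, and without H epi replicate 1 that of SQLE was -2.36. Each of these fits leaves 1 array in that condition. Between paclitaxel and epirubicin, 0 of 29 hypoxia effects differed past the test, against 0.750% higher and 0.0983% lower among all genes tested. INSIG2 came closest there, at 2.02 (adjusted p = 0.0519), and passed with the third arrays added by title (1.76, adjusted p = 0.00162), without N epi replicate 1 (2.36, adjusted p = 0.00346), under quantile normalization (1.97) and under median centring (1.88). Without N epi replicate 1, 3 genes passed there, and without H epi replicate 1, 1 did (SQLE, 2.58). At an unadjusted p under 0.05, limma counted 4 of 29 for this difference.

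**Figure D4:**
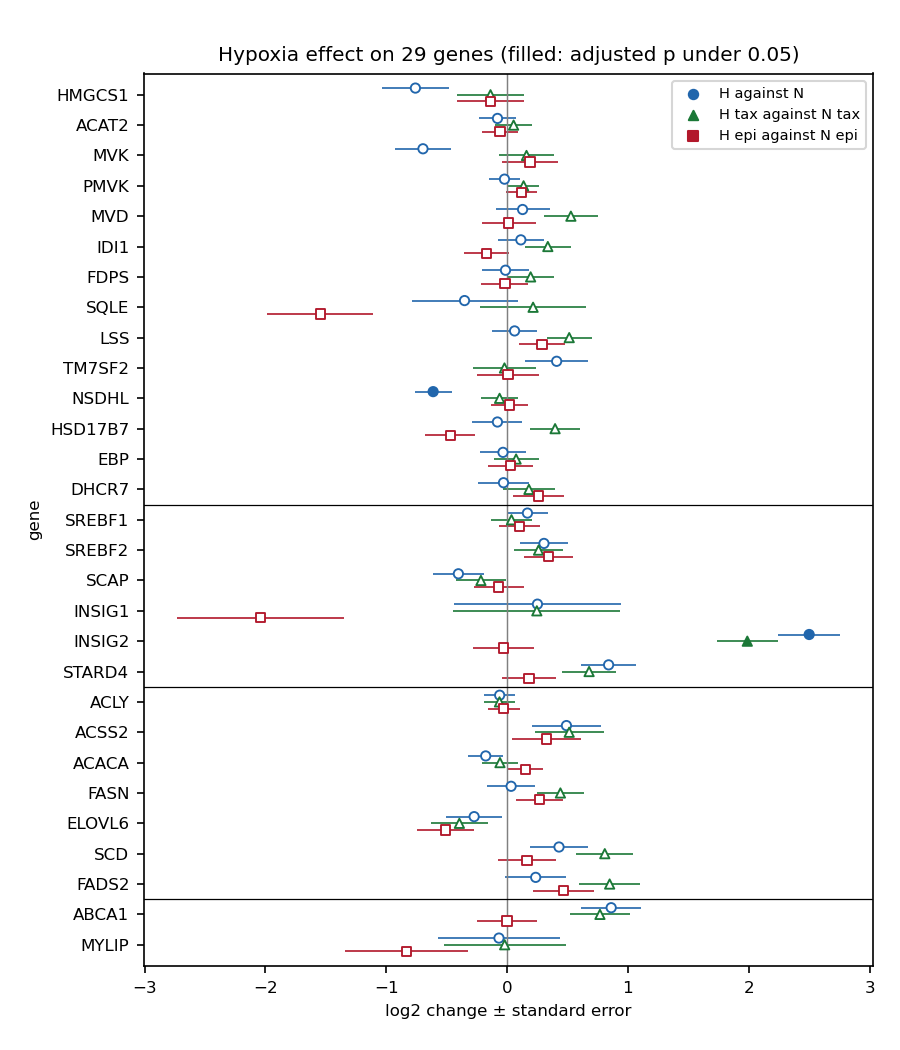
Log2 change with hypoxia for 29 genes in control cells (circles), with paclitaxel (triangles) and with epirubicin (squares), with bars of 1 standard error from limma (n = 2 arrays per condition) and filled symbols for an adjusted p under 0.05. INSIG2 stands at 2.50 and 1.99 without epirubicin and at -0.03 with it, NSDHL is the other filled symbol, and INSIG1 and SQLE have the lowest squares, at -2.04 and -1.55.

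The changes with each drug in normoxia are set side by side here. Both comparisons share the N arrays, and no test was made between the drugs. HMGCS1 had changes of -1.08 with paclitaxel and -4.02 with epirubicin, SQLE of -0.73 and -4.09, HSD17B7 of -0.52 and -2.55, IDI1 of -0.84 and -2.40, and INSIG1 of -0.92 and -5.23. For ACAT2 the order was the other way, -1.32 with paclitaxel and -0.62 with epirubicin, and likewise for EBP, -0.97 and 0.28, for FDPS, -1.07 and -0.51, for ACACA, -1.20 and -0.89, and for FADS2, -1.20 and -0.86. LSS (-1.13 and -1.15) and TM7SF2 (-1.14 and -1.14) had changes that were close to each other. SREBF1, the SREBP gene that fell with epirubicin, had 0.07 and -1.01.

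The replicates of these genes agreed more closely in H (median SD 0.11) and N tax (0.13) than in N (0.23), N epi (0.23) and H epi (0.22). Replicate 1 was above replicate 2 for 24 of 29 genes in N and in H epi, and for 17 to 19 in the other 4 conditions. As the median over the 29 genes of the difference from the N mean, the N tax arrays stood at -0.67 and -0.87, the H tax arrays at -0.51 and -0.60, the N epi arrays at -1.17 and -1.31 and the H epi arrays at -0.96 and -1.30, while the N arrays stood at 0.16 and -0.16.

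For the wider pathway, 33 further genes were listed and 28 were tested. None of the 28 passed with hypoxia in any of the 3 comparisons (control cells, paclitaxel, epirubicin). From N to N tax 1 rose and 3 fell, against the 8.92% higher and 15.0% lower among all genes tested. OSBP, an oxysterol-binding protein, rose by 1.30 on the log2 scale (adjusted p = 0.00798), while ACSL1, an acyl-CoA synthetase, fell by 0.92, HSD17B12 by 0.55 and TECR, both of the fatty acid elongation cycle, by 0.54. From H to H tax 5 rose, TRIB3 by 2.69, OSBP by 1.21, FADS3 by 0.82, SC5D by 0.68 and STARD3 by 0.50, and 3 fell, MBTPS2 by 0.68, TECR by 0.63 and ERLIN1 by 0.33, against 13.3% higher and 18.1% lower among all genes tested. These counts over the list are a description and are no result about it.

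With epirubicin 5 of the 28 rose and 10 fell in normoxia, and 9 rose and 9 fell in hypoxia, against 24.2% higher and 30.8% lower, and 29.5% and 36.2%, among all genes tested. Nothing is read from these counts about the list as a whole. MSMO1, a sterol methyl oxidase of the same route, fell with log2 changes of -2.57 (adjusted p = 7.31e-05) in normoxia and -2.92 in hypoxia, and GGPS1, which makes geranylgeranyl diphosphate, with -1.55 and -2.17. LPIN1, a phosphatidate phosphatase, fell with -2.71 and -2.85, SCD5, a desaturase related to SCD, with -3.39 and -2.58, and NR1H3, which encodes LXR alpha, with -1.59 and -2.03. TRIB3 (-2.94 and -5.06), RNF139 (-2.74 and -4.83), OSBP (-1.04 and -2.11) and NPC1, which exports cholesterol from lysosomes (-1.03 and -1.85), fell in both, and SC5D (-0.66) in normoxia. The N epi replicates of TRIB3, at log2 signals of 6.94 and 9.81, and of RNF139, at 4.16 and 7.54, lay far apart, so that the size of their normoxia changes is uncertain. Higher with epirubicin were the elongase gene ELOVL7, by 2.03 and 1.81, ERLIN2, by 1.29 and 1.55, NPC2, by 0.56 and 0.55, TECR, by 0.44 and 0.59, and ERLIN1, by 0.40 and 0.41. In hypoxia FADS3 (0.70), LBR (0.64), SOAT1 (0.52) and MBTPS1 (0.30) rose as well.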

How the data were processed

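RNA of MDA-MB-231 cells was measured on Affymetrix arrays of the human U133 Plus design. GC-RMA was run by the authors on 18 arrays. The deposited values are log2 signals from 2.23 to 16.6. Their methods name AffyProbeMiner chip definitions, while the deposited probe sets carry standard Affymetrix names. No tool version is given in the sources used here. Of the 18 arrays, 12 were compared, and the other 6 were left out because title and source name give different drug treatments. After 62 control probe sets were set aside, 24151 of 54613 probe sets reached presence in some condition, a linear signal above the methods' limit of 8.84 on both of its arrays. Of 54675 probe sets, 41097 had 1 symbol in the platform's gene table, 1801 several and 11777 none. The log2 values of the 6 conditions entered 1 fit in limma 3.58.1 (under R 4.3.3, with 1.17.8 of data.table), with 6 residual and 2.28 prior degrees of freedom, two-sided tests and Benjamini-Hochberg adjustment over 24151 probe sets at 0.05. There were 7 comparisons of conditions and 3 differences of hypoxia effects. Shares over all genes refer to 11193 genes with 1 representative probe set. The number of arrays limits the precision. No further normalisation was applied.

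The listed genes, their groups and the further pathway genes were chosen with earlier results of these data known. Values on each array are given for the 3 largest changes past the test in each comparison and for the regulators, by rule. Those for PMVK, MVK, EBP, STARD4, MYLIP and ABCA1 were chosen after their values were seen. As alternatives, the third arrays entered under their title or under their source name, single arrays were omitted, the replicate number served as a block, the presence filter was dropped, arrays were quantile normalised or median centred, the variance prior was made trended and robust, each comparison was fitted with its own conditions alone, and a second probe set stood for each gene.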

Additional observations from a re-analysis of the deposited data

Results flagged for a closer look

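The hypoxia effect on INSIG2 differed between epirubicin-treated and control cells by a test of the difference itself. INSIG2 rose by 2.50 on the log2 scale from N to H and changed by -0.03 from N epi to H epi, a difference of -2.53 (limma, adjusted p = 0.0128). Both H arrays lay above both N arrays, as they did for 27.1% of all genes tested, while the N epi and H epi arrays overlapped. The ACTB difference between 3′ and 5′ control probe sets was lowest on the epirubicin arrays, and its part in this result was not tested.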

How the results depend on the processing

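Of 160 gene results examined, 78 passed the test as reported and 82 did not. The 78 are all calls of the reported fit. The 82 belong to a chosen list, INSIG1, INSIG2, SREBF1, SREBF2, SCAP, HMGCS1, SQLE, STARD4, ABCA1 and MYLIP. Results of the other genes that did not pass were not followed here, so their new calls are missing from these numbers. With the third arrays added by title 151 kept their side of the threshold and 9 of the 82 were newly past it. With a trended and robust variance 158 kept their side, with quantile normalisation 152, with median centring 137, without a presence filter 138 and in fits of each comparison's own conditions 132. With the third arrays added by source name, limma found that 0 of 29 genes passed in H epi against H, H tax against H, H tax against N tax, H against N, N epi against N, N tax against N and the hypoxia effect of epirubicin against control, where an unadjusted p was under 0.05 for 4 genes from H to H epi and for 0 in the others. The change of ACAT2 from N to N epi was then 0.12. Median centring turned FDPS from H to H epi to 0.0231 and ACLY to 0.003 from N to N epi and 0.17 from H to H epi, by its own shift of the arrays.

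Without a presence filter, 7 genes passed in N tax against N, 6 in H tax against H and 1 in H against N. In fits of each comparison's own conditions, 6 passed in H tax against H and 0 in H tax against N tax, where 7 had an unadjusted p under 0.05. By title, 3 passed in H tax against N tax and 5 in H against N, against 6.2% and 22.5% of all genes tested. The difference of the hypoxia effects of paclitaxel and epirubicin had 1 gene by title, under quantile normalisation, under median centring and with a trended and robust variance. Of 18 genes with a second probe set, 1 (NSDHL) passed from N to H with its first and 0 with the second, and INSIG2 is not among them. The cause of these moves was not tested. Some of these fits also held another number of arrays or of probe sets. The share of all genes that passed was computed only for the third arrays by title, quantile normalisation and median centring. For the other fits, those without 1 array included, a count cannot be set against such a share.

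With 1 array left out, the counts were 19 to 25 for H epi against H, 0 to 2 for H epi against N epi, 5 to 12 for H tax against H, 0 to 2 for H tax against N tax, 1 to 4 for H against N, 19 to 23 for N epi against N, 4 to 19 for N tax against N, 0 to 4 for the hypoxia effect of epirubicin against control, and 0 to 3 for that of paclitaxel against epirubicin. For the hypoxia effect of paclitaxel against control it was 0 throughout. A condition left with 1 array is assumed to vary like the others.

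No label says that a replicate number marks a shared experiment. Over 15 pairs of conditions the correlation of same-numbered deviations was -0.184 to 0.302, over 0.1 in 3. With the replicate number as a block, 2 genes passed in H tax against N tax, 3 in H against N, 16 in N tax against N, 23 in N epi against N, 13 in H tax against H and 23 in H epi against H. The block ended the calls of ELOVL6 from N to N tax (adjusted p = 0.0517), NSDHL from N to H (0.063) and MYLIP from H to H epi (0.0578), and STARD4 passed from N to H (0.0312).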
